A study of Mus musculus with 6 samples.

Results

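Liver cells hold their cholesterol level steady through a sensing system in the endoplasmic reticulum, and 7 genes of that system and of lipoprotein uptake are described here. The genes were chosen with earlier results of these data known. Their probe sets were taken by gene symbol alone: every probe set on the arrays annotated to Srebf2, Scap, Insig1, Insig2, Stard4, Lrp1 or Scarb1. This gave 16 probe sets, 12 on the 430A design and 4 on the 430B design, of 35067 probe sets with 1 gene symbol, or 7 of 18194 genes. The arrays were Affymetrix mouse genome arrays hybridised with total RNA of whole liver. Each of 3 genotypes gave 1 array per design, 6 arrays in all.

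LT livers came from mice with the ApoErtTA and TRE2-TAg transgenes, in which doxycycline induced the SV40 large T oncoprotein and the small t oncoprotein. 17kT livers came from mice whose labels name the same pair of transgenes, the second spelled TRE2-TA in one field, and in which doxycycline induced SV40 17kT with small t. WT livers came from non-transgenic mice. All animals were males on a hybrid B6SJL background, 32 to 37 days old, and all, WT included, drank water with 25 µg/ml doxycycline and 2.5% sucrose for 4 days. The ApoErtTA driver was absent from WT mice, so its effect and that of the viral proteins cannot be told apart. The sources used here do not say how many animals contributed to each RNA sample. There were no replicates. Differences between genotypes therefore come without a replicate check or a p-value, and their precision is limited by the small number of arrays.

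SREBP-2, the product of Srebf2, is made as a precursor in the endoplasmic reticulum membrane and turns on genes for cholesterol synthesis and uptake once it is cut free. SCAP carries the precursor to the Golgi, where it is cut, and INSIG1 and INSIG2 hold the complex of SCAP and precursor back when sterols are plentiful. Insig1 is itself a target of SREBPs, and in rodents Insig2 has a liver transcript that is high in fasting and is lowered by insulin. STARD4 is a soluble sterol carrier, LRP1 a large endocytic receptor that clears lipoprotein remnants, and SCARB1 the receptor through which hepatocytes take cholesterol from HDL.

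The promoter windows of 3 sensing genes are shown because Insig1 and Insig2 differed most between genotypes and Srebf2 encodes the transcription factor of the system. Each runs from 250 bases before to 50 after an annotated start, is written 5′ to 3′ along the gene, and comes from RefSeq on GRCm38.p6. Of the 7 genes, 5 had at least 1 window in that table, 8 windows in all. Insig1 lies on the plus strand at chr5:28071162-28071461, Srebf2 on the plus strand at chr15:82147019-82147318, and the farthest upstream of the 3 Insig2 windows on the minus strand at chr1:121332540-121332839. Capitals mark matches, on either strand, to the NF-Y box CCAAT, the Sp1 box GGGCGG, the E-box CACGTG or the letters TCACCCCA of a sterol regulatory element.
Insig1: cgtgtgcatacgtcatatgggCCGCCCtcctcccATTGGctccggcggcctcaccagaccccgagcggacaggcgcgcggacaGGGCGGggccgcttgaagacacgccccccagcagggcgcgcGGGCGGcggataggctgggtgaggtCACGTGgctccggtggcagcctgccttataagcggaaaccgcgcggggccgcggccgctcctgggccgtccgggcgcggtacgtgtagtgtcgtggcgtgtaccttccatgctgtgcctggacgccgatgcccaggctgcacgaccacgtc
Srebf2: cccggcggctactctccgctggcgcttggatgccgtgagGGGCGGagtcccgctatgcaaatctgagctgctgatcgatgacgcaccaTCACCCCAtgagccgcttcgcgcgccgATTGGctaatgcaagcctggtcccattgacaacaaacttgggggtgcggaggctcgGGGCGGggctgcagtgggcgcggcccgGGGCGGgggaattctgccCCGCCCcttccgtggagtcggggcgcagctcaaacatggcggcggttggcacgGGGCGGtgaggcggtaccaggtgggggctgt
Insig2: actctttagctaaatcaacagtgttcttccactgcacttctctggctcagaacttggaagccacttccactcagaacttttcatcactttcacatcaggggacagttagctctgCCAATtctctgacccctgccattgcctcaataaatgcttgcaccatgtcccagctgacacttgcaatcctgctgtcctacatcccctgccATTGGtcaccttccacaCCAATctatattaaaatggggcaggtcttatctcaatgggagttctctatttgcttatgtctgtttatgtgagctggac

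The Insig1 window held 1 NF-Y box, 3 Sp1 boxes and 1 E-box, which lay 101 bases before the start. The Srebf2 window held 1 match to TCACCCCA, 162 bases before the start, 1 NF-Y box, 135 bases before the start, and 5 Sp1 boxes. The Insig2 window shown held 3 NF-Y boxes, at 136, 46 and 29 bases before the start, and the other 2 Insig2 windows held 1 Sp1 box each and no NF-Y box. The longer sterol regulatory element TCACNCCAC was in none of the 8 windows. Over all 32851 windows of the table, 1.24% held TCACNCCAC, 1.56% TCACCCCA, 7.15% CACGTG, 37.4% CCAAT and 35.7% GGGCGG. The searches for TCACCCCA and CACGTG were added after the windows had been read. A match is a run of letters, and no binding was measured.

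Values below are MAS5 signals, in arbitrary units, that were scaled to a common trimmed mean within each design. Signals under the median of all signals of a design (90.4 on 430A, 140.5 on 430B) were set to that floor before a ratio was taken. A gene was called higher or lower where its floored signals differed at least 2-fold (1 on the log2 scale) on its brightest probe set. Readings of the same 100 probe sets on both designs gave the technical spread of a log2 ratio: an SD of 0.23 in LT against WT, 0.28 in 17kT against WT and 0.26 in LT against 17kT. Different probe sets of 1 gene spread more widely (SD 0.54, 0.52 and 0.45). Each SD is that of a single ratio: the SD of the difference between 2 readings, divided by the square root of 2. The designs also differed by a constant: the median of 430A minus 430B log2 ratios over those 100 probe sets was -0.25, 0.19 and -0.36. Insig1 was read on 430B alone and Stard4 best on 430B, and the other 5 genes best on 430A. Fluidics station 2 handled the LT arrays and station 1 those of 17kT and WT, and the effects of the station and of the LT genotype cannot be told apart. The genotype labels were not checked here, since no reading of the viral genes was used.

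Of the sensing and sterol transport genes, 4 were lower in both transgenic livers than in WT liver, and the uptake receptors were not past the rule of size. Scap, Insig1, Insig2 and Stard4 were called lower in LT against WT, 4 of 7 members, where 9.01% of 12776 measured genes were called lower and 11.1% higher. The same 4 genes were called lower in 17kT against WT, where 8.64% of 12993 measured genes were called lower and 9.97% higher. No member was called higher in either comparison. Because the members were chosen with earlier results of these data known, these counts beside those of all genes are a description only. Over the single probe sets, 6 of 16 were called lower in LT against WT (8.21% of all measured probe sets, with 10.6% higher) and 6 of 16 in 17kT against WT (7.7%, with 9.48% higher). These comparisons share the WT arrays. The member median was -1.01 on the log2 scale in LT against WT, against 0.02 for all measured genes, and -1.39 in 17kT against WT, against 0.07.

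**Figure D1:**
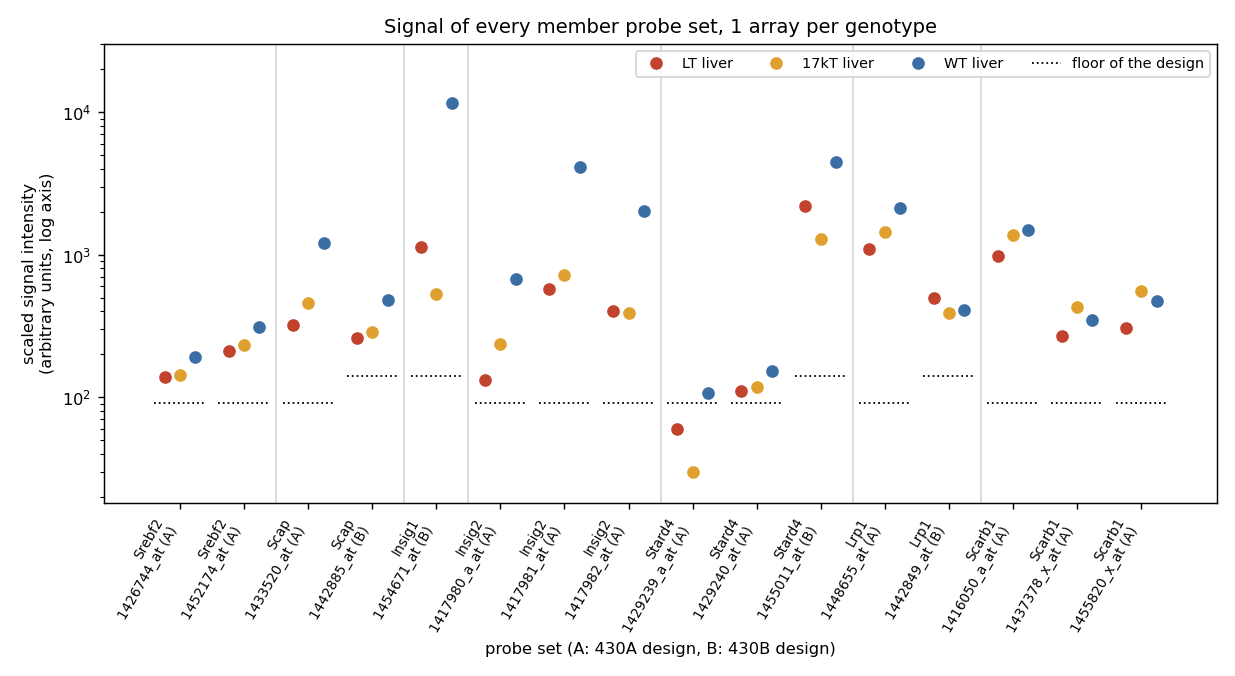
Scaled signal intensity (arbitrary units, log axis) of each of the 16 member probe sets in LT, 17kT and WT liver, with 1 point per array and a dotted line at the floor of the design. WT is the highest of the 3 points for both Srebf2, both Scap, the Insig1, all 3 Insig2 and all 3 Stard4 probe sets, and LT or 17kT reaches or passes WT on probe sets of Lrp1 and Scarb1.

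Insig1, the sterol-dependent anchor of SCAP, had the lowest ratios of the 7 genes in both comparisons with WT. Its only probe set, 1454671_at, gave 1122 in LT liver, 530.4 in 17kT liver and 11480 in WT liver. The signal was 10.2-fold lower in LT than in WT and 21.6-fold lower in 17kT than in WT, and both transgenic values stayed well above the floor of 140.5. Of 12776 measured genes, 60 had a lower log2 ratio than Insig1 in LT against WT, and of 12993 genes 34 did so in 17kT against WT. With 1 probe set, Insig1 has no second reading on these arrays.

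Insig2, the second anchor, was low in both transgenic livers on each of its 3 probe sets, all on 430A. The brightest, 1417981_at, gave 572 in LT liver, 719.9 in 17kT liver and 4107 in WT liver, which is 7.18-fold lower in LT and 5.71-fold lower in 17kT than in WT. Probe set 1417982_at gave 402 in LT, 387 in 17kT and 2027 in WT (5.05-fold and 5.24-fold lower). Probe set 1417980_a_at gave 133 in LT, 236 in 17kT and 672 in WT (5.07-fold and 2.85-fold lower). All 3 passed the rule in both comparisons with WT, and none of the 3 passed it between LT and 17kT. The probe sets cannot be assigned to 1 of the 3 annotated Insig2 starts.

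Scap, the escort of the SREBP precursors, was lower on both of its probe sets but past the rule on 1. Probe set 1433520_at on 430A gave 322 in LT liver, 456 in 17kT liver and 1197 in WT liver, 3.72-fold lower in LT and 2.62-fold lower in 17kT than in WT. Probe set 1442885_at on 430B gave 258 in LT, 288 in 17kT and 477 in WT, with log2 ratios of -0.88 for LT against WT and -0.73 for 17kT against WT. The direction was the same on both designs, and the 430A ratios were the larger. Scaled to the hybridisation controls, the 430A log2 ratio of 17kT against WT was -0.65, short of the rule.

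Srebf2, the transcription factor gene, was not called in either comparison. Probe set 1452174_at gave 211 in LT liver, 233 in 17kT liver and 308 in WT liver, log2 ratios of -0.55 for LT against WT and -0.40 for 17kT against WT. Probe set 1426744_at gave 138 in LT, 142 in 17kT and 189.8 in WT, with log2 ratios of -0.46 and -0.41. WT was the highest array on both probe sets. These values are near the SD between probe sets of 1 gene, and the ratio of 17kT against WT was 0.34 under scaling to the hybridisation controls.

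Stard4, the sterol carrier, was called lower on 1 of its 3 probe sets. Probe set 1455011_at on 430B gave 2201 in LT liver, 1277 in 17kT liver and 4440.1 in WT liver, 2.02-fold lower in LT and 3.48-fold lower in 17kT than in WT. The other 2, on 430A, were dim: 1429240_at gave 111 in LT, 117 in 17kT and 153 in WT. Probe set 1429239_a_at gave 107 in WT and lay under the floor in LT and 17kT. All 3 probe sets were highest in WT. The call in LT against WT sits at the threshold, with a log2 ratio of -1.01, and was lost when arrays were scaled to the median of all probe sets (-0.79) or to the hybridisation controls (-0.76), with the floor as a pseudocount (-0.97) and under the 3-fold rule. Averaged over its probe sets, Stard4 had log2 ratios of -0.57 in LT against WT and -0.81 in 17kT against WT, and neither call held.

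Lrp1, the remnant receptor, gave readings that differed between its 2 probe sets. Probe set 1448655_at on 430A gave 1095 in LT liver, 1436 in 17kT liver and 2115 in WT liver, with log2 ratios of -0.95 for LT against WT and -0.56 for 17kT against WT. Probe set 1442849_at on 430B gave 497 in LT, 388 in 17kT and 407 in WT, with log2 ratios of 0.29 and -0.07. In LT against WT the first lies just short of the 2-fold rule and the second is on the other side of 0. That gap is larger than the design offset and than the SD between probe sets of 1 gene. The SD is for a single ratio, and a gap between 2 probe sets spreads more widely. Lrp1 passed the rule in LT against WT under scaling to the probe sets shared by the designs (-1.21), the only alternative that added a member to that comparison.

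Scarb1, the HDL receptor, was not called in either comparison, and its 3 probe sets on 430A had LT as the lowest array each time. Probe set 1416050_a_at gave 980.0 in LT liver, 1382.5 in 17kT liver and 1487 in WT liver, log2 ratios of -0.60 for LT against WT and -0.11 for 17kT against WT. Probe sets 1437378_x_at and 1455820_x_at, whose suffix marks probes that may match other transcripts, gave 269.9 and 306 in LT, 426 and 554 in 17kT, and 349 and 473 in WT. Their log2 ratios were -0.37 and -0.63 in LT against WT and 0.29 and 0.23 in 17kT against WT. For 17kT against WT the sign of Scarb1 thus depended on the probe set, and on 1416050_a_at it turned to 0.63 on the hybridisation control scale.

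**Figure D2:**
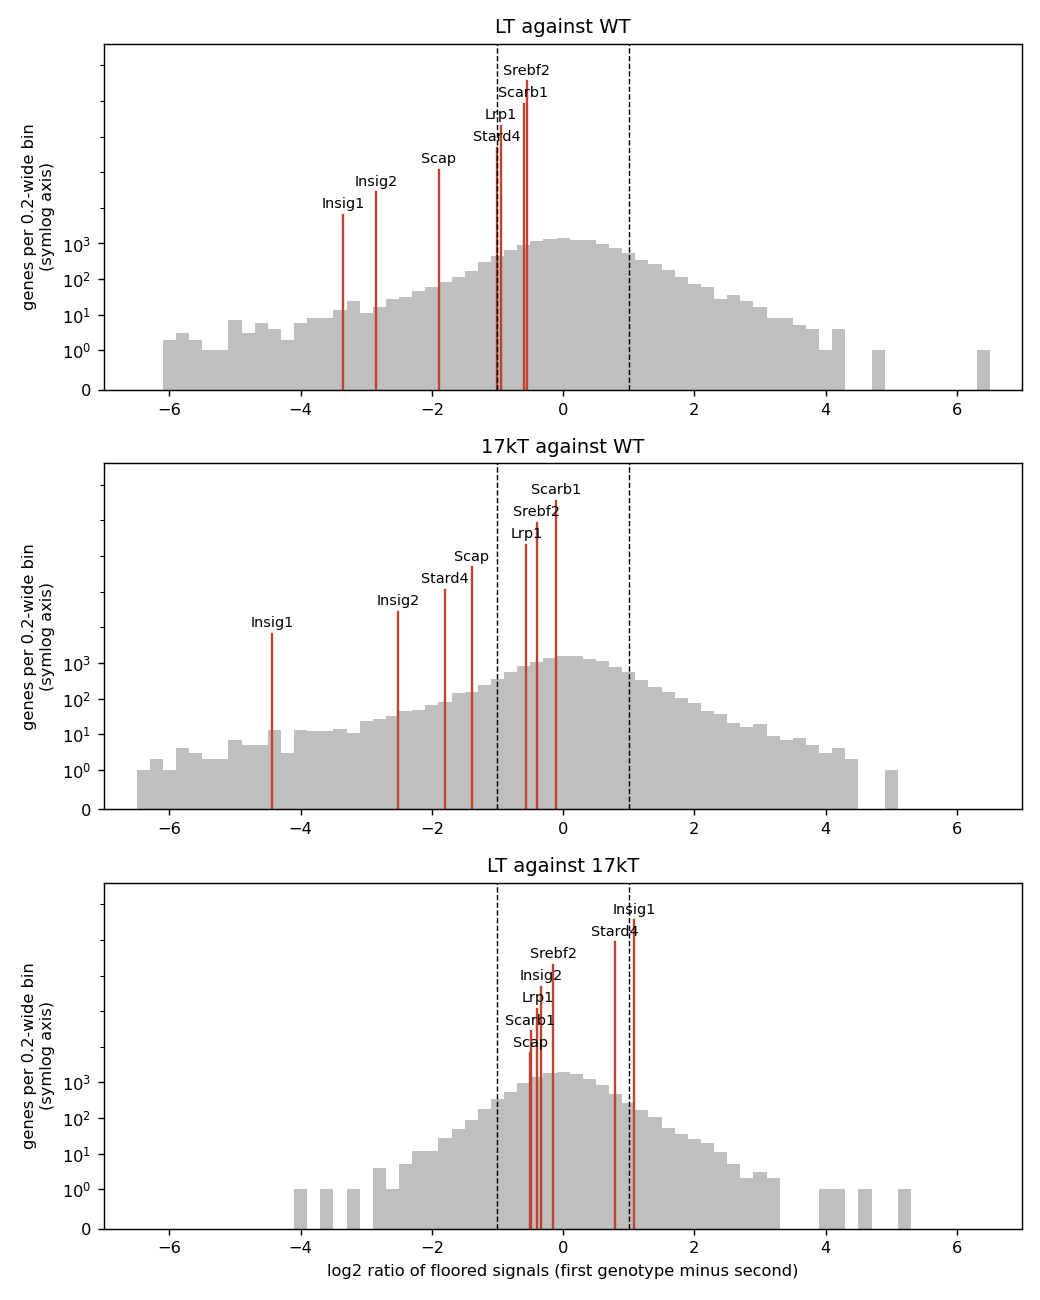
Distribution of log2 ratios (x axis) over all measured genes in bins 0.2 wide (symlog count axis), with a red line at each of the 7 member genes and dashed lines at the 2-fold rule, for the 3 comparisons. Insig1 and Insig2 lie far to the left in LT and in 17kT against WT, and in LT against 17kT only Insig1 crosses a dashed line.

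Fewer of the 7 genes were called between LT and 17kT livers. Insig1 was called higher in LT than in 17kT, 1122 against 530.4, or 2.12-fold, 1 of 7 members, where 4.47% of 12542 measured genes were called higher and 4.23% lower. Over single probe sets, 1 of 15 measured was called higher (4.24% of all) and 0 lower (4%). Stard4 on its 430B probe set was next, 2201 in LT against 1277 in 17kT, with a log2 ratio of 0.79. The genes read best on 430A lay on the other side of 0: Scap -0.50, Scarb1 -0.50, Lrp1 -0.39, Insig2 -0.33 and Srebf2 -0.15. This split of the brightest probe sets runs with the array design, whose offset in this comparison was -0.36 (430A minus 430B). Among the further probe sets, Scap 1442885_at on 430B (-0.155) and Insig2 1417982_at on 430A (0.05) lay on the other side, and the rest of those measured followed the split. Under scaling to the probe sets shared by the designs, Insig1 was at 0.77 and Stard4 at 0.47, no member was called, and the 5 others stayed below 0. The difference between the genotypes in Insig1 thus depends on the scaling, and the part of the design offset in it was not tested otherwise.

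The scaling also set the size of each ratio against WT. Scaling to the hybridisation controls moved the median of all measured genes to 0.38 in LT against WT and to 0.40 in 17kT against WT, and scaling to the probe sets present on both designs moved it to -0.27 and -0.11. Taken from that median, Insig1 lay between -3.54 and -3.23 in LT against WT over the 6 scalings and between -4.90 and -4.35 in 17kT against WT. Insig2 lay between -2.95 and -2.70, and between -2.67 and -2.17. Scap lay between -2.00 and -1.80, and between -1.55 and -1.05. Stard4 lay between -1.20 and -0.89, and between -2.26 and -1.62. Lrp1 and Srebf2 stayed below 0 in these terms in both comparisons, while Scarb1 crossed it in 17kT against WT.

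**Figure D3:**
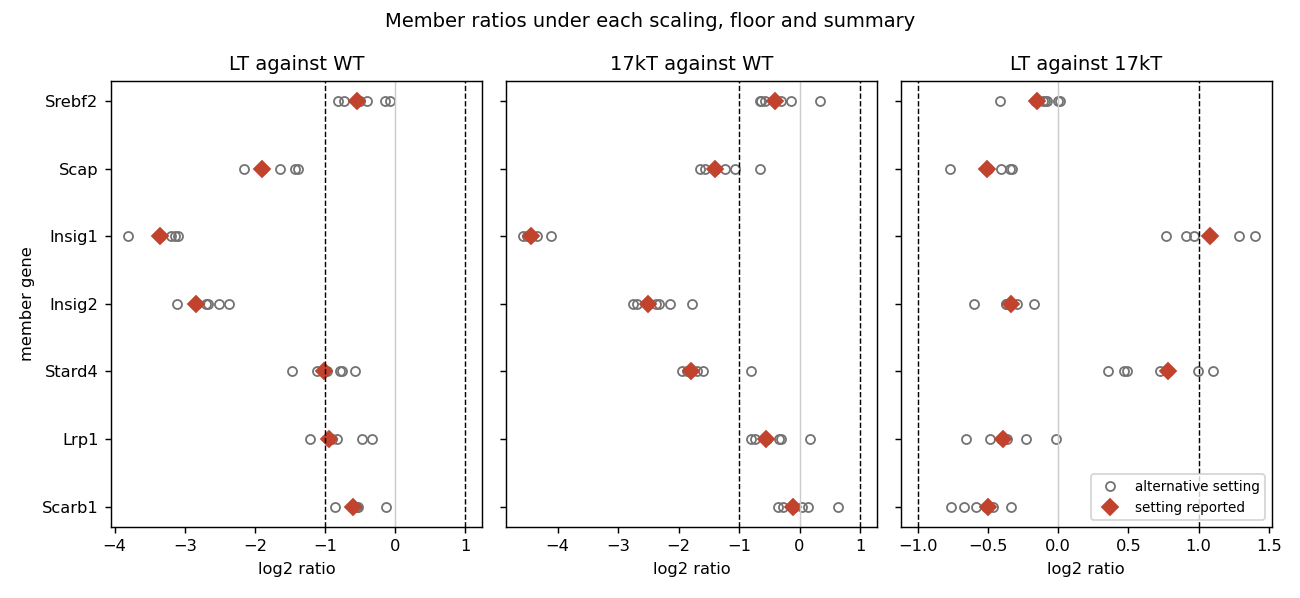
Log2 ratio (x axis) of each member gene under the setting reported (red diamond) and under each alternative scaling, floor and probe set summary (open circles), with dashed lines at the 2-fold rule. Insig1 and Insig2 stay left of the rule under every setting shown in both comparisons with WT, and Srebf2, Lrp1 and Scarb1 have circles on both sides of 0 in 17kT against WT.

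Other genes of the pathway, from 5 lists written from knowledge of it, did not all behave alike. Over all measured genes, 9.01% were called lower and 11.1% higher in LT against WT, and 8.64% and 9.97% in 17kT against WT. In LT against 17kT these shares were 4.23% and 4.47%. The lists are short, and their counts were not tested against these shares. Enzymes of cholesterol synthesis were lower throughout: 17 of 17 measured were called lower in LT against WT (median -1.99) and 16 of 17 in 17kT against WT (median -2.32), with 0 called higher in either. Msmo1, a sterol oxidase, was 11.7-fold lower in LT and 17.1-fold lower in 17kT. The farnesyl diphosphate synthase gene Fdps was 9.12-fold and 13.0-fold lower. Idi1, an isomerase of the isoprenoid steps, was 6.94-fold lower in LT and had a log2 ratio of -3.32 in 17kT against WT. Sc5d, a late sterol desaturase, was 8.76-fold lower in LT and 22.8-fold lower in 17kT. Between the transgenic livers, Sqle (2.56-fold) and Sc5d (2.60-fold) were called higher in LT, 2 of 17, with 0 lower (median 0.38).

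Genes for the activation and turnover of SREBPs were mostly not past the rule. Of 17 measured, 0 were called higher and 1 lower in LT against WT (median 0.01), and 0 higher and 2 lower in 17kT against WT (median 0.06). Pgrmc1, a membrane protein that binds SCAP and INSIG1, was 2.02-fold lower in LT and, just short of the rule, 1.95-fold lower in 17kT. Syvn1, a ubiquitin ligase of the endoplasmic reticulum, was 2.94-fold lower in 17kT on its 430B probe set, whereas its 430A probe set had a log2 ratio of -0.22. Srebf1, which encodes the related factor SREBP-1, gave 1369 in LT, 904 in 17kT and 2085 in WT, 2.31-fold lower in 17kT than in WT and at a log2 ratio of -0.61 in LT against WT. The proteases that cut SREBPs were not called. Mbtps1 had log2 ratios of 0.45 in LT against WT and 0.64 in 17kT against WT, and Mbtps2 0.35 and 0.09. Of these ratios, only that of Mbtps1 in 17kT against WT exceeded the SD between probe sets of 1 gene. Their signs under the other scalings were not tested. Over the scalings, the list median lay between -0.25 and 0.48 in LT against WT and between -0.08 and 0.31 in 17kT against WT. No gene of this list was called between LT and 17kT.

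Of 13 genes of liver X receptor signalling and sterol efflux, 4 were called lower in LT against WT and 3 in 17kT against WT, with 0 higher (medians -0.27 and -0.06, against -0.54 to 0.20 and -0.31 to 0.68 over the 6 scalings). The genes called act on bile acids and phospholipids. Cyp27a1, a sterol hydroxylase, was 9.68-fold lower in LT and 5.72-fold lower in 17kT. Cyp7a1, the rate-limiting enzyme of bile acid synthesis, was 2.17-fold and 2.66-fold lower, and the bile salt exporter Abcb11 2.03-fold and 5.65-fold lower. The phospholipid enzyme gene Lpcat3 was 2.21-fold lower in LT. Efflux transporters were not called: Abca1 had log2 ratios of 0.18 in LT against WT and 0.02 in 17kT against WT, Abcg5 0.76 and 0.08, and Abcg8 -0.27 and -0.48. Between LT and 17kT only Abcb11 was called, 2.78-fold higher in LT.

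Among 17 lipoprotein receptors and partners measured in LT against WT, 1 was called higher and 2 lower (median -0.18). In 17kT against WT, 0 of 16 were higher and 3 lower (median -0.35). Some genes not called on their brightest probe set passed the rule on another. Cd36 was 3.06-fold higher in LT and 2.71-fold higher in 17kT on 1450883_a_at, and at log2 ratios of 0.90 and 0.43 on its brightest. Lower in both were Sort1 on 1423363_at (2.25-fold and 2.29-fold) and Dab2 on 1429693_at (at least 2.14-fold in each). Pdzk1, the adaptor that holds SCARB1 at the hepatocyte membrane, gave 357 in LT, 144 in 17kT and 737 in WT, 2.07-fold lower in LT and 5.10-fold lower in 17kT than in WT, while Scarb1 itself was not called. Lcat, which esterifies cholesterol on HDL, had log2 ratios of -1.60 in LT against WT and -1.58 in 17kT against WT, both called lower. Apoa1, the main HDL protein, was 2.10-fold lower in 17kT on probe set 1419232_a_at. Its _x_at probe sets fell just short of the rule there, at 1.91-fold, 1.99-fold and 1.93-fold lower. The VLDL receptor gene Vldlr gave 715 in LT, 85.2 in 17kT and 269.8 in WT on probe set 1435893_at, 2.65-fold higher in LT than in WT and at least 5.09-fold higher in LT than in 17kT. Its second 430B probe set gave 235 in LT, 60.5 in 17kT and 243 in WT, a log2 ratio of -0.05 for LT against WT, and 17kT alone lay under the floor of 140.5. Pdzk1 was 2.47-fold higher in LT than in 17kT, and Vldlr and Pdzk1 were the 2 of 17 genes called in that comparison.

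Among genes of sterol transport and storage inside cells, 3 of 17 were called lower in LT against WT and 0 higher (median -0.50), and 4 of 18 were lower and 1 higher in 17kT against WT (median -0.31). Gramd1c, of a family of sterol carriers in the endoplasmic reticulum, was 5.83-fold lower in LT and 7.39-fold lower in 17kT. Stard5, a relative of Stard4, was 8.95-fold lower in LT and 3.51-fold lower in 17kT on probe set 1422822_at, and 1450769_s_at was called lower in both too (4.15-fold and 2.76-fold). Its other probe sets were not called: 1422821_s_at had log2 ratios of -0.32 and 0.22, and 1441828_at, with LT under the floor, -0.71 and 0.62. Osbpl1a was 2.18-fold lower in LT and Osbpl8 at least 2.92-fold lower in 17kT. Scp2, the sterol carrier protein gene, was 2.17-fold lower in 17kT on probe set 1426219_at and 1.92-fold lower in LT, short of the rule. Its probe set 1419974_at was also called in 17kT alone (2.02-fold lower, and 1.82-fold in LT). The reverse held for 1449686_s_at, called in LT (2.97-fold lower) and not in 17kT (1.68-fold), and 1419975_at was not above the floor. Nceh1, a cholesteryl ester hydrolase, was 2.13-fold higher in 17kT on probe set 1455227_at. Its other probe sets did not pass the rule: 1435134_at had a log2 ratio of 0.40, and 1435135_at gave 19.2 in 17kT, under the floor, and 186.8 in WT, at least 1.33-fold lower in 17kT. In LT against 17kT, Stard5 was 2.55-fold lower and Osbpl8 at least 2.07-fold higher, 1 of 17 each way. On the hybridisation control scale the median of this list was -0.08 in LT against WT and turned to 0.36 in 17kT against WT, and that of the lipoprotein receptors turned to 0.22 and 0.18.

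**Figure D4:**
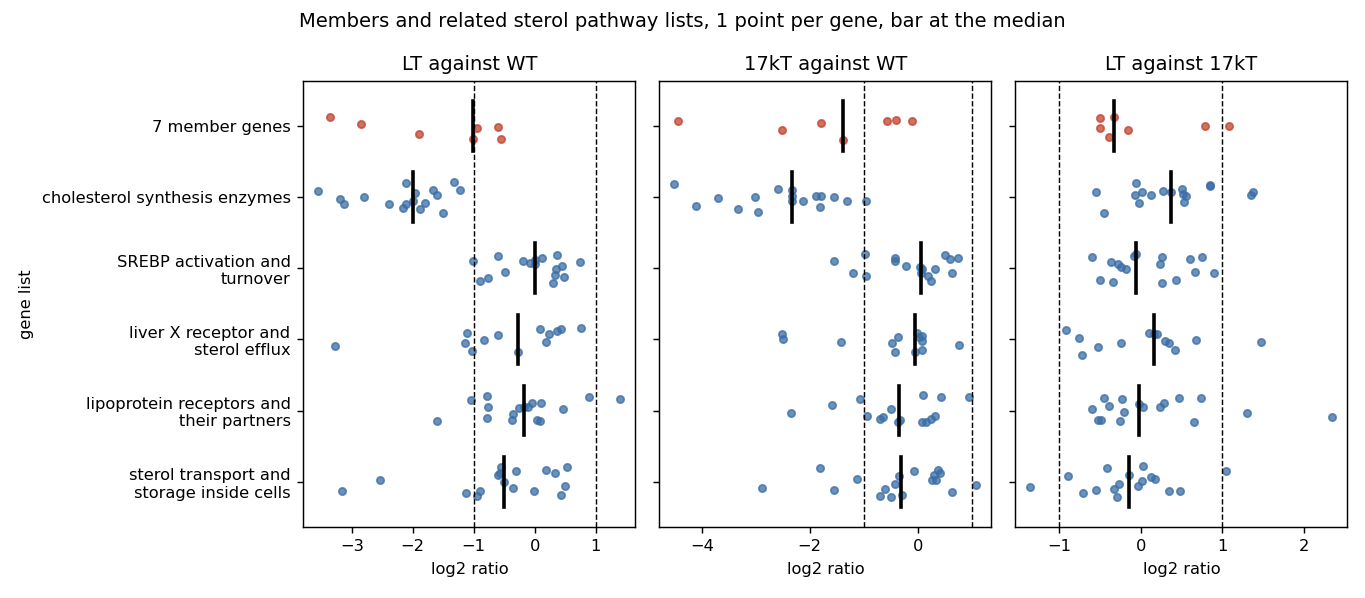
Log2 ratios (x axis) of the 7 member genes (red) and of the measured genes of 5 sterol pathway lists (blue), 1 point per gene, with a black bar at the median and dashed lines at the 2-fold rule. The cholesterol synthesis list lies left of the rule in both comparisons with WT, except Hsd17b7 at -0.95 in 17kT against WT, and the medians of the other lists lie between -0.50 and 0.06 there.

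The genes whose ratios to WT lay nearest to those of a called member, over the 3 arrays of its design, were found by distance in the 2 log2 ratios. For Insig1 the nearest of 4109 genes on 430B was Sc5d (distance 0.24), then Nudt7 (0.30) and Cmah (0.38). For Stard4 they were Ankrd9, Esr1 and Susd4, all within 0.09, and 19 genes lay within 0.25. On 430A, of 5673 genes, Cela1, Cyp4f15 and Hpd were nearest to Insig2 (4 genes within 0.25) and Grb7, Etfrf1 and Tfr2 to Scap (17 genes within 0.25). Insig1 had 1 gene within 0.25. With 3 arrays this is a description of these values.

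In bulk liver, fewer cells of a type and less RNA per cell cannot be told apart, and markers moved with genotype too. Marker counts stand beside 9.01% of all measured genes called lower and 11.1% higher in LT against WT. For 17kT against WT these shares were 8.64% and 9.97%, and the counts were not tested against them. All 10 hepatocyte markers found on the arrays were above the floor in every genotype. The summed 430A signal of 9 of them was 107300 in LT, 84960 in 17kT and 161500 in WT, with Apoa2, Apoc3 and Tat called lower in both transgenic livers and Apoa1 in 17kT. Of 14 Kupffer cell markers, 1 was called lower in LT against WT (C1qc) and 1 in 17kT against WT (Timd4). Their 430A sums were 13260 in LT, 16200 in 17kT and 15280 in WT. Of 12 endothelial markers, 3 were lower in LT (Tek, Cdh5 and Eng), and 2 were lower (Cdh5 and Eng) and 1 higher (Lyve1) in 17kT, with sums of 4142, 4919 and 5408 and with Tie1 and Vwf at the floor throughout. Of 12 stellate markers, 2 were lower in LT (Rgs5 and Lrat) and 1 in 17kT (Acta2), with 430A sums of 5064, 7525 and 7177 and with Pdgfrb and Hhip at the floor throughout. In LT against 17kT, Cd163, Dcn and Ecm1 were lower and Apoa2 higher. Bile duct markers were near background except Prom1 and Cd24a, both higher in LT than in WT and than in 17kT. Krt7, Krt19, Epcam, Sox9 and Cftr were at the floor on all arrays, and the list summed to 1379, 397 and 316. Of the blood cell markers, Alas2 was lower in LT (14.0-fold) and in 17kT (12.4-fold) than in WT. S100a8 was at least 2.53-fold higher in LT than in WT and than in 17kT. Cd3e, Hba-a1 and Ncr1 were at the floor throughout, and the sums were 1107, 895 and 2557. Hba-a1 was read on probe set 1453574_at, and probe sets with several gene symbols were left out, so the level of globin RNA is not settled here. The 3′ over 5′ signal ratio of the Gapdh control, a measure of RNA integrity, was 3.08 and 3.16 on the LT arrays, 3.53 and 2.85 on the 17kT arrays and 5.81 and 6.04 on the WT arrays. The same ratio of the Actb control did not set WT apart, at 2.52 and 2.50 on the LT arrays, 2.13 and 1.72 on the 17kT arrays and 2.57 and 2.29 on the WT arrays. The part of these differences in the member ratios was not tested.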

How the data were processed

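Liver RNA of 3 genotypes was measured on 6 arrays, 1 of each design per genotype. The deposited intensity values, linear and 1 for each probe set, were made by the authors with MAS5, per the submitters' processing notes, whose version the sources used here do not give. The deposited arrays had a 2% trimmed mean between 250.03 and 250.12. The deposited settings files hold other, non-expression entries, of which only the fluidics station was used, per the file headers. Gene symbols came from the platform's annotation and were updated through gene identifiers to RefSeq (GRCm38.p6). Probe sets with several symbols (691 on 430A, 245 on 430B) or none (1606 and 7656) were left out.

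Signals were brought to equal 2% trimmed means on the arrays of a design, floored at the median of the design and log2-transformed, and ratios were formed within a design. A gene was represented by its brightest probe set relative to the floor, with _x_at probe sets used only where a gene had no other, and was measured where at least 1 of the 2 arrays lay above the floor. A fold is "at least" where the dimmer array lay at the floor. The text names all members with every probe set, up to 4 called genes each way of a pathway list, the called markers, and the 3 nearest genes of each called member. Beyond that rule, list members that were not called (among them the proteases, efflux transporters and further probe sets) were named after their values were seen. The members and lists were chosen with earlier results of these data known. The alternatives were 5 other scalings, a 3-fold rule, floors at the 25th and 75th percentile, adding the floor to each signal, averaging a gene's probe sets, and leaving out _x_at and _s_at probe sets. Computations used Python 3.11.15, numpy 2.4.6 and pandas 2.3.3.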

Additional observations from a re-analysis of the deposited data

How the results depend on the processing

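The count of called members in LT against WT was 4 in the setting reported and between 3 and 5 under the 11 alternatives, and in 17kT against WT 4 and between 3 and 4, with 0 called higher under any of them. Insig1 and Insig2 were called in both comparisons under all 11. Scap was called in LT against WT under all 11 and in 17kT against WT under all except scaling to the hybridisation controls and the 3-fold rule. Stard4 lost its call in LT against WT under 5 of the 11 (median scaling, hybridisation controls, floor as a pseudocount, 3-fold rule, mean over probe sets) and in 17kT against WT under the mean over probe sets. In LT against 17kT the count of 1 (Insig1) was 0 when scaled to the probe sets present on both designs, under quantile normalization, with the floor as a pseudocount and under the 3-fold rule, which asks for more by construction, and 2, with Stard4 added, on the hybridisation control scale. The cause of the other changes was not tested. Of 210 member log2 ratios under an alternative, 203 moved by less than probe sets of 1 gene differ (SD), 7 by more, and no called ratio changed sign. Of the 7, 5 were in 17kT against WT scaled to the hybridisation controls and 2 were means over the probe sets of Lrp1 and Stard4. Using the signals as deposited, lowering the floor, and leaving out _x_at and _s_at probe sets could hardly move a member. The deposited arrays already had near-equal trimmed means. The brightest probe set of each member lay above the floor on all arrays and carried neither suffix. Member ratios and calls under these alternatives, counted above, therefore do not test stability.

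The counts over all genes also moved with the scaling. In LT against WT, 1418 genes were called higher and 1151 lower, against 802 and 2169 when scaled to the probe sets present on both designs and 2632 and 675 when scaled to the hybridisation controls. In 17kT against WT these were 1296 and 1123, against 924 and 1558, and 3104 and 796. In LT against 17kT they were 561 and 530, against 338 and 884, and 884 and 563. The 3-fold rule left 484 and 428 genes in LT against WT, 436 and 508 in 17kT against WT, and 136 and 86 in LT against 17kT, and a floor at the 25th percentile gave 2177 and 2258, 2181 and 1891, and 1100 and 1396. Signals near the floor, as on the dim Stard4 probe sets, limit the ratio that can be seen. No paired analysis was possible because each genotype gave 1 array per design.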
